A study of Mus musculus with 6 samples.

Results

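Chromosome 11 held 2609 of the 36923 CTCF peaks listed for muscle stem cells. They were 1235 of the 19403 peaks in quiescent satellite cells (QSC) and 1374 of the 17520 peaks in freshly isolated satellite cells (FISC). Every interval listed on chromosome 11 was taken, with no filter. The chromosome was chosen because these same lists gave it more FISC peaks, relative to QSC, than the other autosomes. Its numbers of peaks and its sharing are therefore given as a description, with no test.

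Satellite cells, which express the transcription factor Pax7, are the resident stem cells of skeletal muscle. They rest beside the muscle fibre until injury or isolation starts their activation. The zinc finger protein CTCF recognises an extended DNA motif, and where it halts cohesin it marks the feet of chromatin loops and the borders of chromatin domains. Gene-dense chromatin usually carries more CTCF sites than gene-poor chromatin. Mouse chromosome 11 carries, among others, the Hoxb cluster, which patterns the body axis, and the skeletal muscle myosin heavy chain genes Myh1, Myh2 and Myh4, which encode motor proteins of adult fibres.

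Both groups came from skeletal muscle of C57BL/6 mice with the Pax7-nGFP genotype, at postnatal day 38. For the quiescent and for the freshly isolated cells there were 2 ChIP libraries against CTCF and 1 library of input, from sonicated chromatin. The sex and number of the mice, any pooling and the way the quiescent state was kept were not given in the sources used here. Each state is represented by 1 peak list, so no value below has a replicate error, and the intervals given cover counting error only. Peak lists hold no expression values, so the labelled cell type could not be checked against markers.

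The lists give a chromosome, a start and an end for each peak, in mm9 coordinates, with no height or score. Sequencing depth is unknown, and a list grows with depth and with a looser threshold. A site missing from 1 list may still have carried CTCF below the calling limit. In bulk chromatin, fewer cells with CTCF at a site and less CTCF per cell cannot be told apart. No gene is placed at a peak, and no sequence is printed, because the gene and sequence tables used here are in another build.

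On chromosome 11 there were 1.11 FISC peaks per QSC peak, against 0.903 on the 18 other autosomes together. The ratio of these ratios was 0.30 on the log2 scale, with an exact 95% binomial interval of 0.19 to 0.41. Chromosome 11 had the highest ratio of the 19 autosomes. Chromosome 19 came next at 1.09, chromosome 3 was lowest at 0.788, and the median of the 18 others was 0.889. Against its own 18 others, chromosome 19 had a log2 ratio of 0.25 with an interval of 0.084 to 0.42. That interval held the 0.30 of chromosome 11. At the ratio of the other autosomes, the 1235 QSC peaks of chromosome 11 would go with 1116 FISC peaks. The list held 258 more than that, a difference called the FISC excess below.

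Chromosome 11 was also the autosome with the densest peaks in both lists. It held 10.4 QSC and 11.6 FISC peaks per Mb between its first and last listed positions, against 7.61 and 6.87 on the 18 others. Its median spacing was 46.7 kb in QSC and 35.5 kb in FISC, the shortest of any autosome in either list. On the 18 others the spacing was 72.1 kb in QSC and 49.4 kb in FISC. Across the 19 autosomes, density in QSC and FISC peaks per QSC peak had a Pearson r of 0.857 and a Spearman rho of 0.835. Without chromosome 11 these were 0.789 and 0.806 over 18 autosomes. These correlations describe 19 points that share the same libraries and calling thresholds, and QSC peaks enter both axes.

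**Figure D1:**
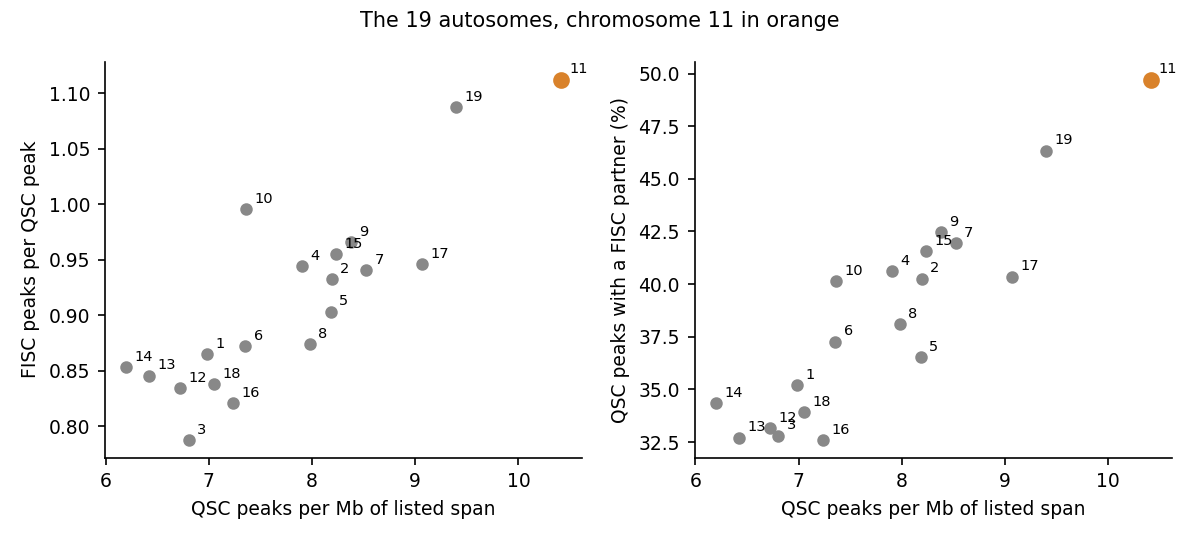
Each point is 1 of the 19 autosomes, with QSC peaks per Mb of listed span on the horizontal axis. The left panel gives FISC peaks per QSC peak and the right panel the percent of QSC peaks with a FISC partner. Chromosome 11, in orange, has the highest value on every axis, at 10.4 peaks per Mb, 1.11 and 49.7%.

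The excess was not even along the chromosome, as counts in 25 fixed bins of 5 Mb showed. Mouse chromosomes have their centromere at the low end of the coordinates, here called proximal. In the first bin, 0 to 5 Mb, there were 39 QSC and 47 FISC peaks, and from 5 to 10 Mb there were 42 and 38. FISC peaks were then the fewer in 5 of the next 7 bins, up to 45 Mb. The bin at 10 to 15 Mb held 29 QSC and 12 FISC peaks, and that at 15 to 20 Mb held 25 and 14. The bins at 25 to 30 Mb, at 35 to 40 Mb and at 40 to 45 Mb held 17 and 9, 18 and 7, and 30 and 21. Between them lay 2 bins with more FISC peaks, at 20 to 25 Mb with 24 QSC and 29 FISC, and at 30 to 35 Mb with 29 and 36. The proximal part thus alternated between FISC-poor and FISC-rich bins.

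The middle of the chromosome was close to balance. From 45 to 50 Mb there were 45 QSC and 43 FISC peaks, and from 50 to 55 Mb 64 and 71. The bins at 55 to 60 Mb and 60 to 65 Mb held 51 and 56, and 55 and 48. Over these 20 Mb the ratio was 1.01 FISC peaks per QSC peak, above the 0.903 of the other autosomes but below that of chromosome 11 as a whole.

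From 65 Mb to the distal end, all 12 bins held more FISC than QSC peaks. The 6 bins from 65 to 95 Mb held 60 and 69, 55 and 64, 86 and 105, 47 and 61, 48 and 61, and 42 and 48 QSC and FISC peaks. The bins at 95 to 100 Mb and 100 to 105 Mb held 87 and 135, and 103 and 125. The last 4 bins held 55 and 64, 46 and 49, 108 and 128, and 30 and 34. The final bin is only partly covered, since the last listed peak ended at 121.7 Mb. On no other autosome did a run of 5 Mb bins above the expected FISC number exceed 8 bins, the longest being on chromosome 9 from 40 to 80 Mb. This depended on the bin size. With bins of 2 Mb the longest run of chromosome 11 was 12 bins, from 66 to 90 Mb, while chromosome 9 also had 12 and chromosome 2 had 13, from 150 to 176 Mb.

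**Figure D2:**
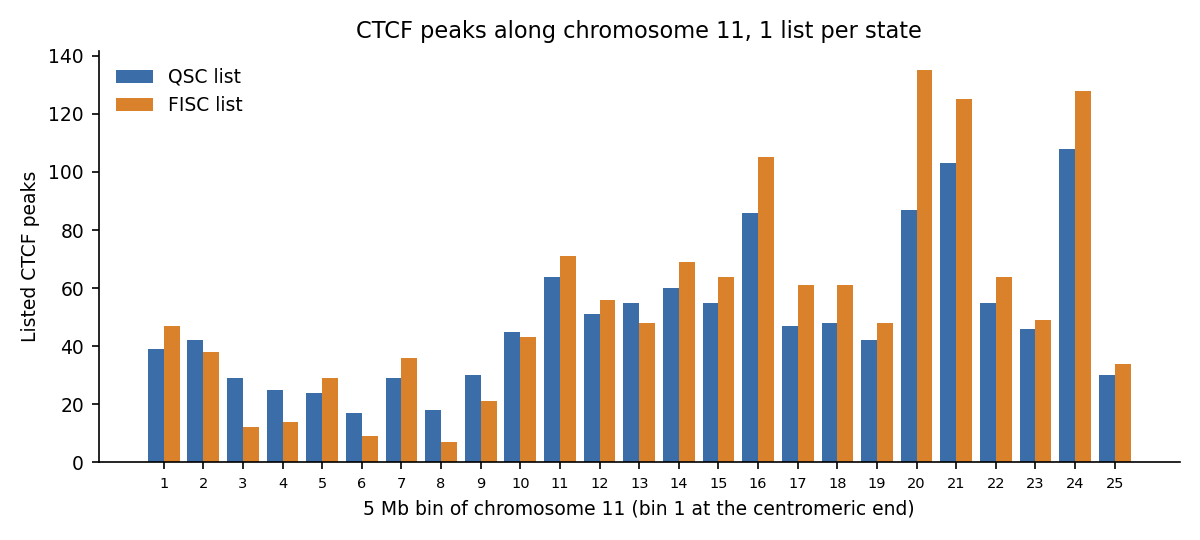
Bars give the number of CTCF peaks in each 5 Mb bin of chromosome 11 in the QSC list (blue) and the FISC list (orange), with bin 1 at the centromeric end. Bars are single counts with no replicate. The orange bar is the taller one in every bin from 14 to 25, and the tallest, in bin 20, stands at 135 FISC against 87 QSC peaks.

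Of the net excess of 258 FISC peaks, 102.6 lay at 65 to 95 Mb, 88.4 at 95 to 105 Mb and 59.1 from 105 Mb to the end. The stretch from 45 to 65 Mb added 23.8, and the first 45 Mb stood at -15.6. The borders of these stretches were chosen after the profile was seen. The 3 bins of 5 Mb with the largest excess were 95 to 100 Mb with 56.4 peaks, 100 to 105 Mb with 31.9 and 115 to 120 Mb with 30.4. The 3 lowest were 10 to 15 Mb at -14.2, 35 to 40 Mb at -9.26 and 15 to 20 Mb at -8.59.

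A bin was counted as having a FISC excess when it held at least 10 peaks and its ratio was at least 1.5 times the 0.903 of the other autosomes. By this rule 1 of 25 bins of 5 Mb on chromosome 11 had a FISC excess (4%), against 3.39% of 472 bins of the other autosomes. A QSC excess, the same fold in the other direction, was found in 4 of 25 bins (16%), against 23.7%. Among bins of 2 Mb, 10 of 56 had a FISC excess (17.9%), against 9.77% of 1044 bins elsewhere. A QSC excess was found in 5 of 56 (8.93%), against 27.1%. With a limit of 2-fold, 0 bins of chromosome 11 had a FISC excess at either size, and 3 bins of 2 Mb and 2 of 5 Mb had a QSC excess. With at least 20 peaks per bin, 0 bins of 2 Mb had a QSC excess, and with bins of 5 Mb shifted by 2.5 Mb it was 2. These alternative settings were counted on chromosome 11 only, so no share of the other autosomes stands beside them. As the chromosome was chosen on this contrast, nothing is read from these counts and shares.

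At 2 Mb the FISC excess was spread over many bins. FISC peaks exceeded the expected number in 40 of the 60 bins with any peak, or 65.6% of all 61 bins, against 44.1% of the 1183 bins of the other autosomes. Chromosome 19 was above chromosome 11 in this, with 22 of 31 bins or 71.0%. More FISC than QSC peaks were listed in 35 bins and fewer in 22, with no share of the other autosomes beside them. As the chromosome was chosen for its FISC excess, nothing is read from these 2 counts. The largest single bin accounted for 11.4% of the net excess and the 5 largest for 40.1%. Starting from the largest, 22 bins had to be left out before no net excess remained. Leaving out any 1 bin kept the log2 ratio of chromosome 11 to the other autosomes between 0.28 and 0.32.

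The 5 bins with the largest excess all lay in the distal part, and 4 of them were next to each other. The bin at 96 to 98 Mb led with 35 QSC and 61 FISC peaks, or 1.74 FISC peaks per QSC peak. Its FISC share of all peaks was 63.5%, with an exact 95% binomial interval of 53.1 to 73.1. The bin at 100 to 102 Mb held 44 QSC and 62 FISC peaks, and that at 94 to 96 Mb held 37 and 52. The bin at 116 to 118 Mb held 39 and 52, and that at 98 to 100 Mb 37 and 50. The last pair fell just under the 1.5-fold limit, at 1.48-fold and 1.496-fold. The 10 bins past the limit also included 7 smaller ones, at 20 to 22, 22 to 24, 54 to 56, 66 to 68, 70 to 72, 84 to 86 and 106 to 108 Mb.

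Within the leading bin at 96 to 98 Mb, 24 sites were shared, 11 peaks were QSC-only and 37 were FISC-only. Cut into 8 pieces of 250 kb, FISC peaks outnumbered QSC peaks in 7 and equalled them in the last. The fullest piece, 96.75 to 97 Mb, held 13 FISC and 5 QSC peaks, and each of those 5 QSC peaks had a FISC partner. The excess of this bin was thus not a single cluster.

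The 5 bins with the FISC number furthest below the expected one, whether or not they held 10 peaks, all lay in the first 42 Mb. The bin at 14 to 16 Mb held 13 QSC peaks and no FISC peak. The bin at 36 to 38 Mb held 10 QSC and 1 FISC peaks, that at 26 to 28 Mb 8 and 1, that at 40 to 42 Mb 9 and 3, and that at 18 to 20 Mb 12 and 6. These bins were thin, with 9 to 18 peaks of both lists together. The bin at 26 to 28 Mb was under the minimum of 10 peaks, and the fifth bin counted above with a QSC excess was that at 10 to 12 Mb, with 12 QSC and 7 FISC peaks.

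**Figure D3:**
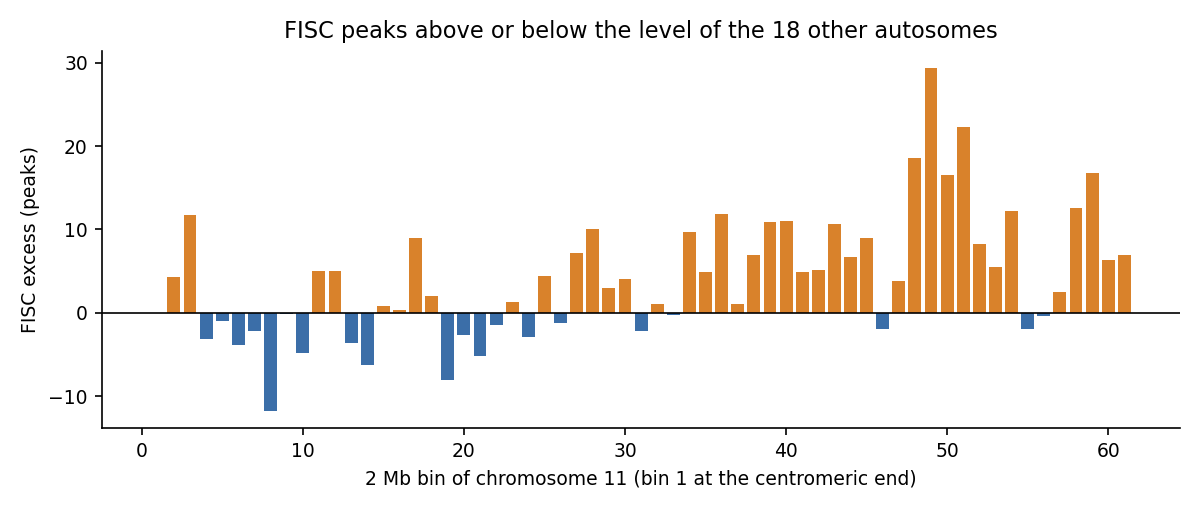
Bars give, for each 2 Mb bin of chromosome 11, the number of FISC peaks minus the number expected from its QSC peaks at 0.903 FISC peaks per QSC peak. Orange bars lie above and blue bars below the level of the 18 other autosomes, and there is no replicate. The tallest bar is bin 49 at 29.4 peaks and the lowest bin 8 at -11.7.

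Long stretches without a FISC peak were a feature of the proximal part. The longest ran over 3.86 Mb at chr11:36725395-40588959 and held 10 QSC peaks, with a median width of 283 bp. The next ran over 3.70 Mb at chr11:12459552-16161307 with 19 QSC peaks of 275 bp in the median. The third of them ran over 2.78 Mb at chr11:23949648-26732320 with 7 QSC peaks of 292 bp. The longest stretches without a QSC peak were shorter, 1.36 Mb at chr11:24571830-25929298, 1.23 Mb at chr11:37778017-39008054 and 0.938 Mb at chr11:91792286-92730126. None of these 3 held a FISC peak. QSC peaks in a stretch without FISC peaks are QSC-only by construction, and their widths stand beside a median of 292 bp for all QSC-only peaks of the chromosome.

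The tilt towards the distal end was also seen on other autosomes. Each chromosome was divided by length into 3 equal parts between its first and last listed positions. On chromosome 11 the proximal part, up to 42.6 Mb, had 0.842 FISC peaks per QSC peak (197 and 234 peaks). The middle part, up to 82.1 Mb, had 1.09 (495 and 454), and the distal part had 1.25 (682 and 547). On the 18 others together the values were 0.829, 0.874 and 0.989. The proximal part of chromosome 11 was thus close to the proximal parts elsewhere, and the distance from the others was larger in the middle and distal parts. The distal value was above the proximal one on 13 of the 18 others. The difference was 0.405 on chromosome 11, and it was larger on chromosome 15 (0.499) and chromosome 18 (0.471).

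Peak density along the chromosome moved with the FISC to QSC ratio. Over the 56 bins of 2 Mb with at least 10 peaks, the percent of FISC among all peaks and the number of peaks had a Spearman rho of 0.586. In 1044 such bins of the other autosomes it was 0.670. These are descriptions over bins of the same 2 lists, and the number of FISC peaks enters both measures.

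Bins of like density were therefore set side by side. In bins with 1 to 9 QSC peaks, chromosome 11 had 0.676 FISC peaks per QSC peak in 10 bins and the 18 others had 0.631. In bins with 10 to 19 QSC peaks the values were 0.983 in 21 bins and 0.801. With 20 to 29 QSC peaks they were 1.12 in 15 bins and 1.05, and with 30 or more they were 1.24 in 14 bins and 1.17. The ratio was higher in each denser class in both sets, and chromosome 11 was the higher in each of the 4 classes. The exact 95% intervals of the FISC share overlapped in 3 classes and did not in the class of 10 to 19, at 45.4 to 53.7% against 43.7 to 45.3%. The chromosome was chosen on this ratio and the intervals cover counting error only, so nothing is read from their overlap.

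Dense bins were more common on chromosome 11. Bins with 20 or more QSC peaks held 70.9% of its QSC peaks, against 41.8% on the 18 others. With the ratios of like bins elsewhere, its QSC peaks would go with 1256 FISC peaks, which is 54.1% of the way from the 1116 at the overall ratio to the 1374 listed. With bins classed by the peaks of both lists, the number was 1309, or 75.01% of the way. The log2 ratio of listed to expected FISC peaks was then 0.13 and 0.07, in place of 0.30. In the classing by both lists, FISC peaks help set the class of a bin, so part of the drop to 0.07 is built in. In the classing by QSC peaks, the QSC number sets the class and also divides the ratio, so the 0.13 also depends on the classing. The part of regional density in the excess was not tested.

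**Figure D4:**
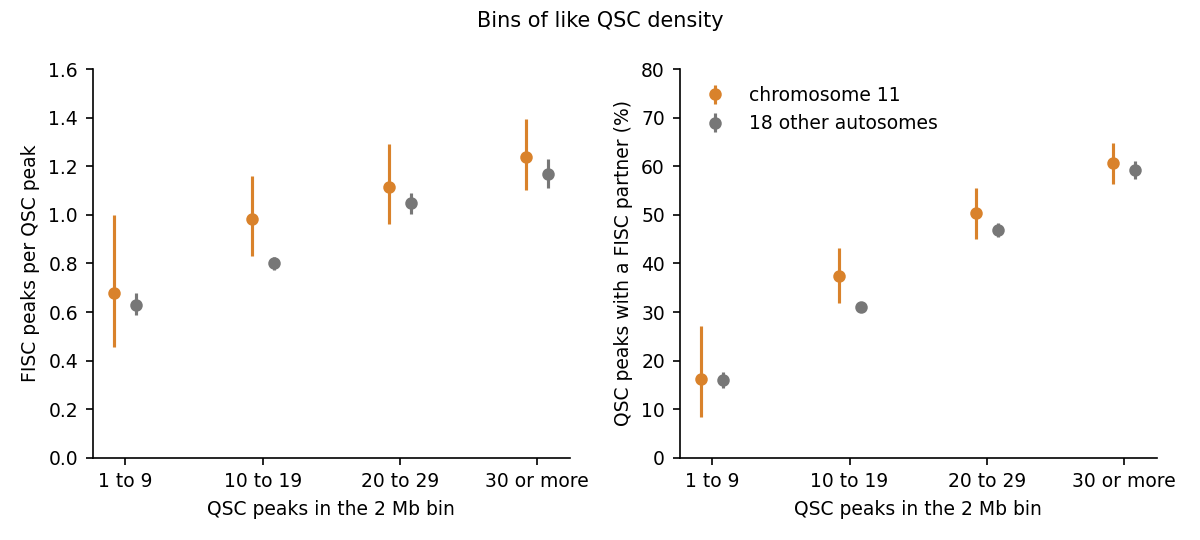
Points compare 2 Mb bins of chromosome 11 (orange) with those of the 18 other autosomes (grey), classed by the number of QSC peaks in the bin. The left panel gives FISC peaks per QSC peak and the right panel the percent of QSC peaks with a FISC partner, with exact 95% binomial intervals as bars. Both measures are lowest in the sparsest class, at 0.676 and 16.2% on chromosome 11, and highest in the densest, at 1.24 and 60.7%.

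Sharing was measured as an overlap of at least 1 bp with a peak of the other list. On chromosome 11, 614 QSC peaks had a FISC partner, 49.7% of its QSC list (exact 95% binomial interval 46.9 to 52.5). The 614 FISC peaks with a QSC partner were 44.7% of its FISC list (42.04 to 47.4). On the 18 other autosomes the shares were 37.9% and 42.0%. Among the 19 autosomes, chromosome 11 was highest in both, followed by chromosome 19 at 46.3% in QSC and by chromosome 7 at 44.5% in FISC. Both shares lay within the counting interval of the next chromosome, which in QSC was 42.1 to 50.6% on chromosome 19. The first place in FISC did not hold under other definitions of sharing. With midpoints within 100 bp chromosome 11 had rank 3 in FISC, and in the wider 50% of each list it had rank 5.

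With equal numbers of shared peaks in both lists, any imbalance lies among the unshared ones. There were 621 QSC-only and 760 FISC-only peaks, a ratio of 1.22, against 0.845 on the 18 others. On the log2 scale that difference was 0.53, and its being larger than the 0.30 of all peaks follows from leaving out the paired ones.

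Sharing of QSC peaks was higher towards the distal end. It was 33.3% (27.3 to 39.8) in the proximal part of chromosome 11, 47.4% (42.7 to 52.1) in the middle part and 58.7% (54.4 to 62.8) in the distal part. The 18 others together had 34.1%, 36.1% and 42.6%. From the proximal to the distal part, QSC sharing rose more on chromosome 15 than on chromosome 11, from 26.6% to 54.7%. It also rose on chromosome 5, from 27.4% to 49.6%, and on chromosome 18, from 20.6% to 42.8%. Between the same parts it fell on chromosomes 7, 14, 16 and 17. FISC sharing spanned a smaller range, with 39.6%, 43.4% and 47.1% on chromosome 11, against 41.0%, 41.4% and 43.1% elsewhere. A QSC peak can be shared only where FISC peaks were called, so its sharing and the FISC count are not separate measures.

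By bins of 5 Mb, QSC sharing ran from 5.88% at 25 to 30 Mb, 1 of 17 peaks, to 69.0% at 95 to 100 Mb, 60 of 87 peaks. FISC sharing ran from 11.1% at 25 to 30 Mb, 1 of 9 peaks, to 56.2% at 115 to 120 Mb, 72 of 128 peaks. The bin with the largest FISC excess, 95 to 100 Mb, was the most shared seen from QSC and stood near the median seen from FISC, at 44.4% against 43.8%. In 18 of the 25 bins the QSC share was the higher one. As the shared numbers of the lists were equal or nearly so in each bin, this mostly restates that 17 bins held more FISC than QSC peaks.

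At like density the sharing of chromosome 11 was near that of the other autosomes. In bins with 30 or more QSC peaks, 60.7% of its QSC peaks were shared (56.3 to 64.9), against 59.3% elsewhere. In bins with 20 to 29, the values were 50.3% (44.9 to 55.6) and 46.9%. In bins with 10 to 19, they were 37.3% (31.8 to 43.2) and 31.1%, and in bins with 1 to 9, 16.2% and 16.0%. With the shares of like bins elsewhere, 46.7% of its QSC peaks and 45.6% of its FISC peaks would be shared, beside the 49.7% and 44.7% found. The 46.7% lay just below the counting interval of the QSC share found, 46.9 to 52.5, and the 45.6% lay inside that of the FISC share.

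Peak width did not enter the choice of the chromosome. FISC peaks of chromosome 11 had a median width of 384 bp (exact 95% order-statistic interval 376 to 390), against 373 bp (370 to 374) on the 18 others. QSC peaks had a median of 318 bp (313 to 324), against 310 bp (309 to 312). Chromosome 11 had rank 3 of 19 in FISC, after chromosomes 7 (388.5 bp) and 17 (384.5 bp), and rank 2 in QSC, after chromosome 9 (319 bp) and level with chromosome 19 (318 bp). With 1 list per state, no test of these differences was made.

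Split by sharing, the distance from the other autosomes shrank in QSC. Shared QSC peaks had a median of 363 bp (354 to 374) and QSC-only peaks of 292 bp (287 to 298), against 359 bp and 292 bp on the 18 others. Shared FISC peaks had a median of 421 bp (412 to 428), against 411 bp (409 to 414). FISC-only peaks had a median of 349 bp (338 to 360), against 344 bp (342 to 347).

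Along the chromosome the FISC median was above the QSC median in all 25 bins of 5 Mb. QSC medians ran from 287 bp at 10 to 15 Mb to 349 bp at 120 Mb to the end, and FISC medians from 323 bp at 15 to 20 Mb to 431 bp at 10 to 15 Mb. The bins at both ends of the FISC range held 14 and 12 FISC peaks. The QSC median was 301.5 bp (293 to 313) in the proximal part, 318 bp in the middle and 325 bp (318 to 334) in the distal part, against 308, 308 and 314 bp on the 18 others. Within classes the QSC medians had no such order in shared peaks, with 367, 370 and 361 bp, and a small one in QSC-only peaks, with 290, 292 and 296.5 bp. FISC medians were 376, 379 and 388 bp, with intervals that overlap. Shared FISC peaks had medians of 402, 425 and 421 bp, and FISC-only peaks of 331, 341.5 and 362 bp. For FISC-only peaks of the 18 others the medians were 341, 343 and 348 bp. Single autosomes had like rises. On chromosome 15 the QSC medians were 296, 303 and 326.5 bp, and on chromosome 1 the FISC-only medians were 326.5, 349 and 355 bp. From proximal to distal, QSC medians fell on chromosomes 1, 7, 14, 16 and 17. FISC-only medians fell on chromosomes 7, 9, 12, 13, 14, 16 and 17.

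**Figure D5:**
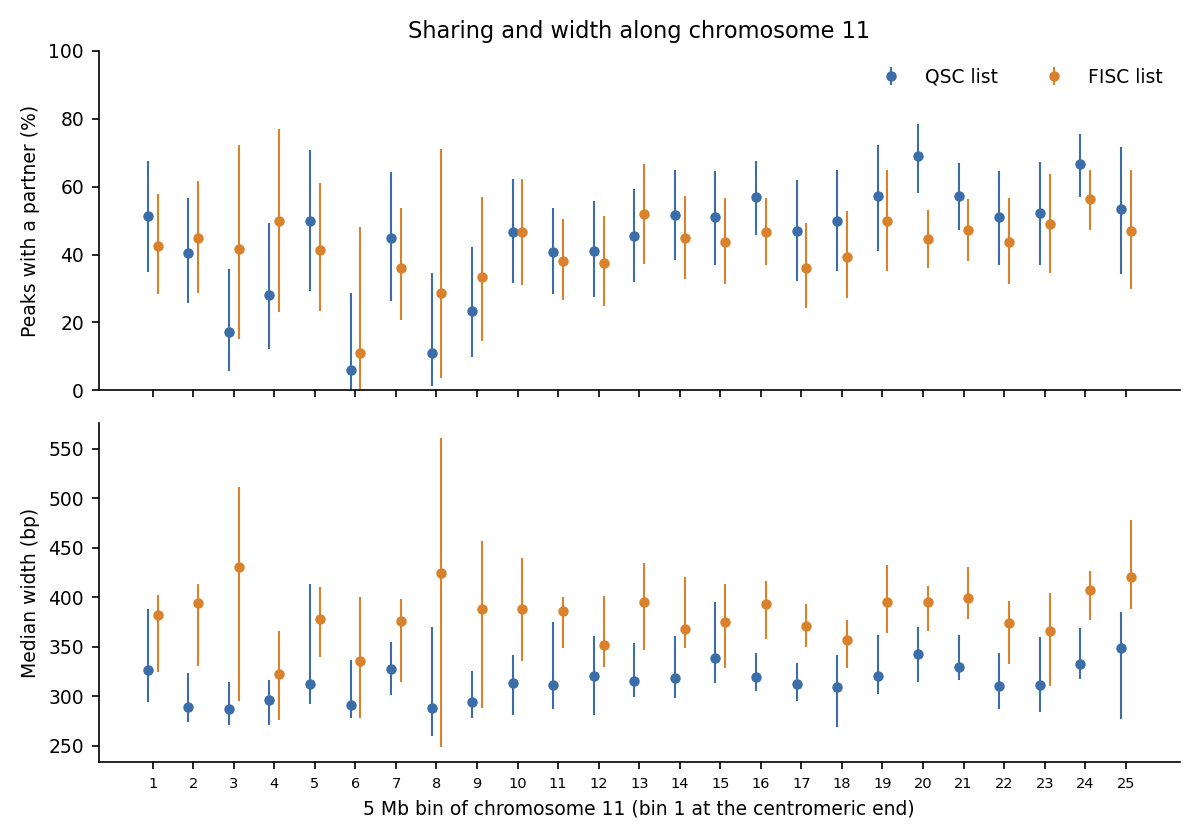
The upper panel gives the percent of peaks with a partner in the other list and the lower panel the median peak width in bp, for each 5 Mb bin of chromosome 11, with bin 1 at the centromeric end. Blue is QSC and orange is FISC, and bars are exact 95% intervals for counting error. QSC sharing is lowest in bin 6 at 5.88% and highest in bin 20 at 69.0%, and each orange median width lies above the blue one.

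Sharing went with width on chromosome 11 as elsewhere. In the widest of 4 width classes of autosomal QSC peaks, 379 bp and more, 74.9% of its QSC peaks were shared (70.1 to 79.3), against 65.4% (63.9 to 66.8) on the 18 others. In the narrowest class, under 273 bp, 27.8% (22.6 to 33.4) were shared, against 18.4% (17.2 to 19.5). The higher QSC sharing of chromosome 11 was thus found in narrow and wide peaks. For FISC, the widest class, 442 bp and more, had 62.7% shared on chromosome 11 and 63.3% elsewhere. The narrowest, under 312 bp, had 17.6% and 20.1%.

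Sites made of exactly 1 peak from each list were compared pair by pair. At the 611 such sites of chromosome 11, the midpoints were a median of 55.5 bp apart (50 to 60.5), against 54 bp at 6568 sites elsewhere. FISC was the wider interval at 62.4% of them (58.4 to 66.2), against 63.8% (62.6 to 64.96). The median of log2 FISC width over QSC width was 0.18 (0.11 to 0.21), against 0.16 (0.15 to 0.18). For each of these 3 measures the interval of chromosome 11 overlapped that of the other autosomes.

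The widest shared site of the chromosome was the same in both lists, at chr11:95119618-95121066 in QSC with 1449 bp and at chr11:95119772-95120964 in FISC with 1193 bp. The next widest QSC peak, of 1189 bp at chr11:53550283-53551471, met a FISC peak of 918 bp. The other 3 of the widest shared QSC peaks were 929 to 961 bp wide and lay at 94.4, 96.9 and 118.6 Mb. Their FISC partners were narrower, at 696, 698 and 477 bp. Of the widest shared FISC peaks, 3 met a much narrower QSC peak. Peaks of either list were picked here for their own width, so a narrower partner is partly built in. The peak at chr11:100223781-100224807 had 1027 bp against 393 bp, that at chr11:75323653-75324579 had 927 bp against 396 bp, and that at chr11:98783167-98784030 had 864 bp against 313 bp.

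The widest state-only peaks were wider in FISC than in QSC. The 5 widest FISC-only peaks had 776 to 939 bp, led by chr11:78832803-78833741, and the nearest QSC peak was between 10.3 and 82.95 kb away. One of them, chr11:97293196-97294023 with 828 bp, lay in the bin of the largest FISC excess. The 5 widest QSC-only peaks had 588 to 685 bp, led by chr11:55258043-55258727. The nearest FISC peak was 1.24 kb from that peak, 0.18 kb from chr11:102977299-102977895 and 66.8 kb from chr11:81729255-81729842.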

How the data were processed

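CTCF ChIP-seq peak lists of QSC and FISC were analysed, 1 list per state. The authors deposited intervals with no score, so no unit beyond coordinates is involved. The submitters' processing notes give mm9 as the build and name MACS2, HOMER, Picard and Bowtie2 2.2.3 without saying what each did. The threshold, the use of input and the way the 2 ChIP libraries entered a list were not given in the sources used here. Read counts and depths are unknown.

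Peaks were assigned by midpoint to fixed bins of 2 and 5 Mb in Python 3.11.15 (scipy 1.17.1, numpy 2.4.6) and drawn with matplotlib 3.10.9. The expected FISC number was QSC peaks times the ratio of the 18 other autosomes. Shares carry exact (Clopper-Pearson) and medians order-statistic 95% intervals. Counting was tested on simulated lists. Named regions were the 5 bins of 2 Mb and 3 of 5 Mb with the largest excess in each direction, the 5 widest peaks per class and the 3 longest stretches without a peak. Members, tests and lists were chosen with earlier results of these data known. X and mitochondrial peaks were left out of the comparison.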

Additional observations from a re-analysis of the deposited data

How the results depend on the processing

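Of 44 values recomputed for 11 results, 28 stayed within the counting interval or within 1.5 times the count, and 16 moved. Only the log2 ratio could change sign, and it did not in any of its alternatives. The log2 ratio of 0.30 was 0.29 in the wider 50% of each list, 0.30 with peaks within 1 or 10 kb counted once, 0.22 without the 5 leading bins and 0.53 for unshared peaks. Against bins of like density, an alternative chosen after seeing the data, it was 0.13 (by QSC peaks) and 0.069 (by peaks of both lists). In the classing by both lists, the FISC peaks help set the class, so part of the drop to 0.069 is built in. In the classing by QSC peaks, the QSC number sets the class and also divides the ratio, so the 0.13 also depends on the classing. At 2-fold, 0 bins of 2 Mb and 0 of 5 Mb had a FISC excess. Bins of 5 Mb shifted by 2.5 Mb gave 2. The number of 2 Mb bins with a QSC excess went from 5 to 3 at 2-fold and to 0 with at least 20 peaks, and that of 5 Mb bins from 4 to 2 at 2-fold and with shifted bins. Bin counts at these settings were made for chromosome 11 only, with no share of the other autosomes beside them. QSC sharing was 44.5% with an overlap of 50% of both peaks and 36.9% with midpoints within 100 bp, and FISC sharing was 40.03% and 33.2%. With midpoints within 100 bp the median width was 303 bp for QSC-only and 364 bp for FISC-only peaks. For these shifts the cause was not tested. No paired analysis was possible because the lists hold no values per replicate, so leaving out a replicate could not be run. Unknown depth limits every statement on peaks of 1 list.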

Other observations

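A larger part of the peaks of chromosome 11 than of the other autosomes together lay in tight groups. With neighbours under 10 kb apart taken as a chain, 29.1% of its QSC peaks (exact 95% binomial interval 26.5 to 31.7) and 39.8% of its FISC peaks (37.2 to 42.5) were in a chain. On the 18 other autosomes these shares were 21.6% (20.9 to 22.2) and 33.7% (32.9 to 34.4). Single autosomes came close to chromosome 11 in the part of gaps under 10 kb. In QSC it was 16.0% on chromosome 11 and 15.2% on chromosome 7, and in FISC 22.4% and, on chromosome 15, 22.1%. Peaks were also denser on chromosome 11, and the part of density in these values was not tested. On chromosome 11, 17 of 1056 FISC chains and single peaks were chains of 4 or more peaks, and 8 of 1036 in QSC. On the 18 other autosomes it was 127 of 12774 in FISC and 52 of 15377 in QSC. The longest chains of chromosome 11 held 5 peaks in either list, against 7 in FISC and 6 in QSC on the others. The tightest of the 5-peak FISC chains spanned 8.30 kb at chr11:88829738-88838039, with 4 FISC-only peaks and 1 shared peak. Other 5-peak FISC chains lay at chr11:66913793-66926643, with 3 FISC-only and 2 shared peaks, and at chr11:98644741-98657433, with 3 and 2. The regions were chosen after their values were seen.

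State-only peaks of chromosome 11 lay closer to shared sites than those of the other autosomes. The median distance from a QSC-only peak to the nearest shared site was 59.8 kb, the shortest of the 19 autosomes, against 159 kb on the 18 others. For FISC-only peaks it was 37.9 kb, also the shortest, against 64.7 kb. Peaks of all kinds were denser on chromosome 11, and the part of density in these distances was not tested.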
